A study of Mus musculus with 13 samples.

Results

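Conventional CD4 T cells are the helper branch of the T lymphocytes. A naive helper cell that has not met its antigen circulates through lymphoid organs and depends on receptors such as Ccr7, while an antigen-experienced cell carries costimulators such as Icos, may remain in the lung through receptors such as Cxcr6, and can secrete the cytokines of a helper lineage. Th1 cells make interferon gamma under the factor Tbx21, Th2 cells make Il4, Il5 and Il13 under Gata3, and Th17 cells make Il17a and Il17f. These lineages are studied in the lung because Il5 and Il13 drive eosinophilic inflammation and Il17a drives neutrophilic inflammation.

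The cells described here were chosen by their own counts from a mouse single-cell RNA matrix with 37344 barcodes in 7 numbered libraries. A barcode of library 1, 2, 3 or 7 was taken if mitochondrial genes held at most 10% of its UMIs, each UMI (unique molecular identifier) marking 1 captured RNA molecule. It also needed at least 2 UMIs summed over Cd3e, Cd3d and Cd3g, which form the T cell receptor complex, and at least 1 UMI of Cd4. It had to hold 0 UMIs of Cd8a, Cd8b1 (CD8 T cells), Foxp3 (regulatory T cells), Cd79a (B cells) and C1qa (macrophages). This rule found 403 cells among the 24344 barcodes of the 4 libraries, or 1.93% of the 20856 barcodes that passed the mitochondrial limit (95% exact binomial interval 1.75 to 2.13%) and 29.4% of the 1370 with at least 2 CD3 UMIs.

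The labels name 4 single-cell lung samples: Asthma (ovalbumin), PPE-emphysema (porcine pancreatic elastase given repeatedly), PPE-recovery (elastase given once) and Control, each from 1 C57BL/6 mouse by the study's description. The other 9 of the 13 labelled samples (acute injury, Con and emphysema, 3 each) were not analysed here. The matrix numbers its libraries 1 to 7 without naming a group, so the numbers were not matched to the labels, no group comparison was made, and libraries are described side by side without a test. Intervals below are exact at 95% and cover counting error within a library only, and a difference between libraries cannot be told apart from one between mice or preparations.

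Library 1 held 182 of the cells, library 2 held 93, library 3 held 80 and library 7 held 48. As a share of barcodes within the mitochondrial limit this was 3.79% in library 1 (3.27 to 4.37%), 1.22% in library 2 (0.985 to 1.49%), 1.56% in library 3 (1.24 to 1.94%) and 1.45% in library 7 (1.07 to 1.92%). The interval of library 1 lay above the other 3, which overlapped one another. The cells of a library summed to 1437301, 917542, 632906 and 332393 UMIs in the order 1, 2, 3 and 7, with medians per cell of 5609.5, 7183, 6058.5 and 6346. Library 7 therefore gives the least precise values. The rule also found 9, 50 and 56 cells in libraries 4, 5 and 6, which are set beside the others only for comparison. Among the 24344 barcodes, 64 barcode sequences occurred in more than 1 of the 4 libraries, but 0 of them more than once among the 403 cells, of which 5 shared a barcode sequence with some other barcode of the 7 libraries.

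The T cell label was checked on genes that the rule did not use. Trbc2, the constant region of the receptor beta chain, had a UMI in 385 of the 403 cells, and Trac, that of the alpha chain, in 374, against 0.796% of B cells for each. Thy1 was found in 360 cells, Cd28 in 360, Lat in 352 and Lck in 322. Trac stood at 660, 527, 646 and 731 CPM (UMIs per 1000000 UMIs) in libraries 1, 2, 3 and 7. Trdc, the gamma delta receptor constant region, had a UMI in 4 cells, and Ncr1, which defines natural killer cells, stood at 0.301 CPM. Icos, named as a marker of these cells, had a UMI in 258 of 403, so it marked a majority and not all of them.

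At the limits of the rule, the 4 cells with exactly 2 CD3 UMIs had 802 CPM of Trac, while the 2 cells just outside, with 1 CD3 UMI, had 322. The 146 cells with a single Cd4 UMI had 509 CPM of Trac and 0.935 of Trdc. The 331 cells left outside for lack of any Cd4 UMI had 353 CPM of Trac and 377 of Trdc. The 17 cells with 9 to 10% mitochondrial UMIs had 10913 CPM of Lyz2, a macrophage and monocyte gene, against 1498 CPM over all 403 cells. The 14 cells just outside with Cd4 and 1 Foxp3 UMI had 1017 CPM of Ctla4, against 219 in the cells kept.

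Transcripts of other lung cells were present in these barcodes and concentrated in few of them. The marker lists of B cells, macrophages and monocytes, dendritic cells, neutrophils, endothelium, epithelium, fibroblasts and red cells together made up a median of 0.146% of UMIs per cell, but over 1% in 35 of the 403 cells (11, 17, 6 and 1 in libraries 1, 2, 3 and 7). The macrophage list stood at 3249, 3752, 2364 and 939 CPM, with Lyz2 or Chil3 as its most abundant gene and 58.1% of its UMIs in 5 cells. The fibroblast list stood at 27.1, 2064, 575 and 60.2 CPM and had 87.9% of its UMIs in 5 cells, and the epithelial list at 2866, 691, 885 and 174 CPM. Of the epithelial gene Sftpc, 2952 UMIs came from 1 cell of library 1. Scgb1a1, a secretory protein of club cells, was spread differently, with a UMI in 348 of 403 cells. Of the defining markers, Ms4a1 and Fcer2a of B cells, Siglech of plasmacytoid dendritic cells, Ly6g of neutrophils and Alas2 of red cell precursors were at 0 UMIs. Values that rest on such barcodes are therefore given also without the 35 cells, a limit chosen after the data were seen.

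Each cell was then classed by 2 pairs of genes. Lef1 (chromosome 3, 131110471 to 131224356, GRCm38), a transcription factor of naive and central memory T cells, and Ccr7 (chromosome 11, 99144196 to 99155077), the chemokine receptor for entry into lymph nodes, formed the naive pair. Cxcr6 (chromosome 9, 123806475 to 123811760), a receptor of tissue-resident T cells, and Icos (chromosome 1, 60977927 to 61000320), a costimulatory receptor, formed the activated pair. A cell with a UMI of 1 pair and 0 of the other took the name of that pair. Of the 403 cells, 84 were naive (20.8%, 17.0 to 25.1%), 159 activated (39.5%, 34.7 to 44.4%), 142 held both pairs (35.2%) and 18 neither (4.47%). The classes are ranges of counts and not separate cell types: 8 of the 84 naive and 19 of the 159 activated cells had exactly 1 UMI of their pair, and 72 of the 142 cells with both had exactly 1 UMI of one of the pairs.

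By their share of activated cells the 4 libraries fell into 2 sets. Activated cells made up 56.6% of library 1 (103 of 182, 49.1 to 63.9%) and 47.9% of library 7 (23 of 48, 33.3 to 62.8%), against 21.5% of library 2 (20 of 93, 13.7 to 31.2%) and 16.3% of library 3 (13 of 80, 8.95 to 26.2%). Naive cells made up 9.34% of library 1 (17 cells, 5.54 to 14.5%), 16.7% of library 7 (8 cells, 7.48 to 30.2%), 30.1% of library 2 (28 cells, 21.03 to 40.5%) and 38.8% of library 3 (31 cells, 28.1 to 50.3%). The activated intervals of libraries 1 and 7 lay above those of libraries 2 and 3. The naive interval of library 1 lay below those of libraries 2 and 3, while that of library 7 overlapped all others.

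Detection of the pairs depends on the number of UMIs per cell, so the classes were also counted with every cell thinned at random to 1500 UMIs, which left out 2 shallower cells. Activated cells were then 47.8%, 28.0%, 22.8% and 51.1% of libraries 1, 2, 3 and 7, and naive cells 10.99%, 21.5%, 44.3% and 17.0%. The order of the libraries by activated share was the same except that libraries 1 and 7 changed places, and the activated interval of library 7 (36.1 to 65.9%) then overlapped that of library 2 (19.1 to 38.2%). The naive interval of library 1 (6.84 to 16.5%) also overlapped that of library 2 (13.7 to 31.2%) at that depth, while it still lay below that of library 3 (33.1 to 55.9%). Cells with both pairs made up 11.5% and cells with neither 29.2% of all cells at that depth. Without the 35 cells rich in markers of other cells, the naive and activated shares at full depth, pooled and per library, stayed within their intervals. Leaving out instead every cell with a UMI of Trdc, Klrb1c or Lyz2 kept 18 cells of library 2, and its naive share went from 30.1% to 61.1% and its activated share went from 21.5% to 11.1%. With a mitochondrial limit of 5%, which kept 132 cells, the naive share was 15.2% of 33 cells in library 1 and 20% of 25 cells in library 3, so the separation of these libraries by naive share was lost.

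**Figure D1:**
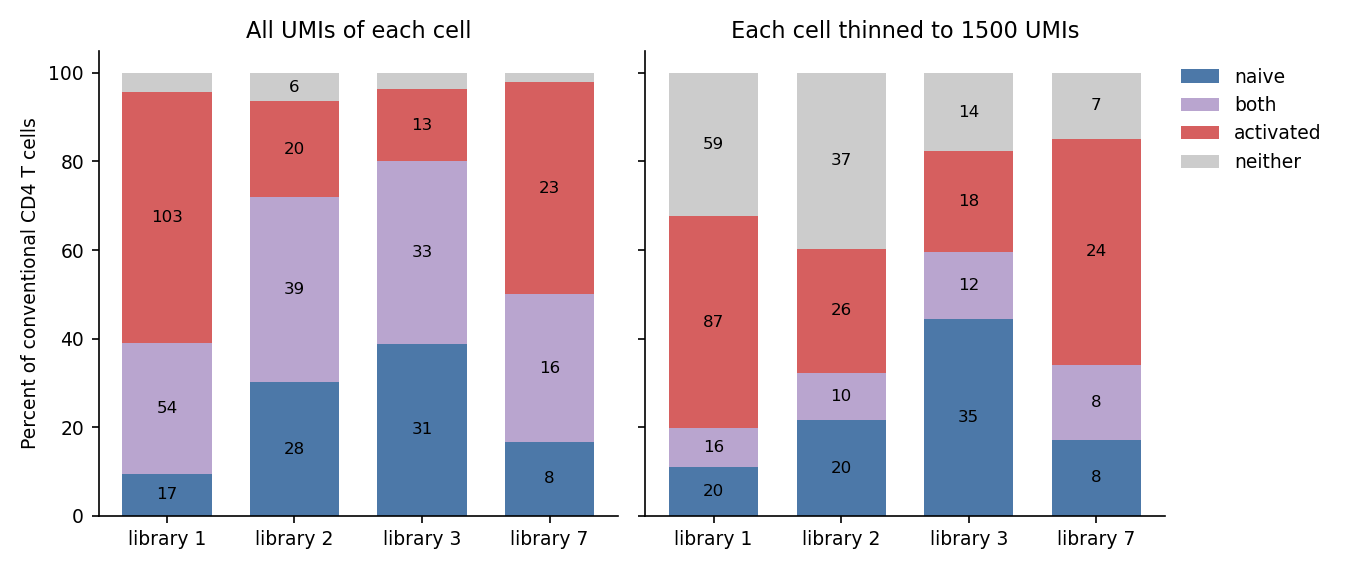
Stacked bars give the percent of conventional CD4 T cells of each library in the naive, both, activated and neither classes, with the number of cells printed in segments of over 5%; the left panel uses all UMIs and the right panel 1500 UMIs per cell. Activated cells are the largest class of libraries 1 and 7 in both panels, and naive cells make up 38.8% (left) and 44.3% (right) of library 3.

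The levels of the 4 genes that made the classes are given here as a description. Cxcr6 stood at 248, 129, 28.4 and 391 CPM in libraries 1, 2, 3 and 7, and 110 of the 182 cells of library 1 had a UMI. Ccr7 stood at 98.8, 202, 430 and 349 CPM, and Lef1 at 102, 213, 363 and 217 CPM. Per UMI, library 7 thus had more Ccr7 than library 2 and about as much Lef1, although it had the lower naive share. Smaller shares of its cells carried these genes, with overlapping intervals. Ccr7 had a UMI in 27.1% of the cells of library 7 and 38.7% of library 2, and Lef1 in 47.9% and 66.7%. Icos varied least, at 333, 219, 267 and 412 CPM. Of the 134 cells with Ccr7, 12 also had Cxcr6 and 61 had Icos, and of the 205 cells with Lef1, 57 had Cxcr6 and 114 had Icos. Ccr7 is also a B cell gene, found in 67.2% of the B cells of these libraries, whereas Lef1 was found in 2.19% and Cxcr6 in 0.199% of them.

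All other genes were compared between the summed UMIs of the naive and of the activated cells. Of 7102 genes with at least 30 UMIs, 5.94% were at least 2-fold higher in naive cells and 12.2% at least 2-fold lower, and the median log2 ratio of naive over activated cells was -0.26. Without the barcodes rich in other markers, 70 naive and 150 activated cells remained. Of the 5904 genes then measured, 2.81% were at least 2-fold higher and 22.2% at least 2-fold lower, with a median of -0.44. Each naive count below can be read against these shares. The direction in single libraries is given beside the pooled value because 103 of the 159 activated cells came from library 1 and most naive cells from libraries 2 and 3. Library 2 alone had at least 20 cells in both classes.

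Apart from the marker lists of other cells, genes of naive and central memory cells were the clearest group on the naive side. Of the 15 listed genes, all measured, 13 were at least 2-fold higher in naive cells and 0 lower, with a median log2 ratio of 2.09 (14 of 15 and 2.36 without the barcodes rich in other markers). Summed over the list, the CPM was 4930 in naive cells, 2925 in cells with both pairs and 1507 in activated cells. The cells with both pairs thus lay between the others on genes that had not been used to class them.

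Dapl1, a small protein of unactivated T cells, had 125 UMIs in 34 naive cells and 0 in activated cells, a ratio of at least 78.3-fold against the 3 counts that 0 allows. Without the barcodes rich in other markers it stood at 194, 188, 366 and 161 CPM in the naive cells of libraries 1, 2, 3 and 7 and at 0 in the activated cells of each.

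Satb1, a chromatin organizer of T cell development, stood at 810 CPM in naive and 90.6 CPM in activated cells without those barcodes, and was higher in the naive cells of each library. Actn1, an actin cross-linker, stood at 271 against 21.5 CPM and had a UMI in 50 of 70 naive and 15 of 150 activated cells. Klf2, a factor that maintains S1pr1, stood at 1186 against 231 CPM. In library 7 its values were 824 and 26.7 CPM and in library 2 they were 1333 and 750, so that the size of the difference varied more across libraries than its direction. S1pr1, the receptor for exit from tissue into lymph, stood at 459 against 103 CPM, and Bcl2, which opposes cell death, at 418 against 62.6 CPM. Tcf7, a partner of Lef1, stood at 531 against 199 CPM and was found in 83 of 150 activated cells. Il7r, the survival cytokine receptor, stood at 905 against 509 CPM and so missed the 2-fold limit.

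The 12 genes named on the naive side by the rule fixed for all genes, with the barcodes rich in other markers left out, included Dapl1, Actn1, Satb1, Frat2, Nsg2, Zfp281, Rflnb, Bcl2, Gramd3, Dusp10 and Igfbp4. All 12 were higher in the naive cells of all 4 libraries, and no single cell held more than 11.9% of the UMIs of any of them. With all 403 cells the 12 genes named by the same rule included Dcn, Mfap4, Dapl1, Spp1, Gpx3, Col3a1, Inmt, Mgp, Sparcl1, Col1a2 and Fn1. For 9 of these 12, 1 cell held 50% or more of the naive UMIs, as for Spp1, a matrix protein of macrophages and stroma, with 1045 of 1068. Apart from Dapl1 these are mostly genes of fibroblasts and matrix, and the fibroblast list had 6 of 7 measured genes at least 2-fold higher in naive cells. Markers of other cells also differed between the classes. Of the macrophage and monocyte list 6 of 9 genes were higher and 2 lower in naive cells (the list summed to 7429 CPM, against 2651 in activated cells), of the neutrophil list 3 of 5 were higher (1519 against 319.8 CPM), and of the epithelial list 5 of 6 were lower (606 against 3321 CPM). Without the barcodes rich in other markers 4 macrophage and monocyte genes were measured, 0 higher and 2 lower, 2 epithelial genes, none past 2-fold, and 0 neutrophil genes. The part of such mixed barcodes in the other values was not tested beyond leaving them out.

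Genes of activation and memory lay on the other side. Of 24 listed genes, 22 were measured, and 0 were higher and 15 lower in naive cells, with a median log2 ratio of -1.46 (16 of 22 and -2.11 without the barcodes rich in other markers). Summed over the list, the CPM was 5377 in naive cells, 12840 in cells with both pairs and 14020 in activated cells. S100a4, a calcium-binding protein of memory T cells, stood at 438 against 2589 CPM with those barcodes left out, and had a UMI in 13 of 70 naive and 143 of 150 activated cells. Its naive cells stood at 984 and 854 CPM in libraries 1 and 2 but 19.6 and 107 CPM in libraries 3 and 7, while activated cells lay between 1700 and 3126 CPM in all 4.

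Cd44, the adhesion receptor that marks antigen experience, stood at 64.5 against 421 CPM. Ahnak stood at 201 against 895 CPM and Lgals1, a galectin, at 467 against 1768 CPM. Id2, a regulator of effector differentiation, stood at 157 against 774 CPM and Ctla4, an inhibitory receptor, at 74.8 against 343 CPM. These 5 genes were higher in the activated cells of each library. Crip1, the most abundant gene of the list over all 403 cells, stood at 1029 against 2028 CPM and was higher in the naive cells of library 7, at 1379 against 1166 CPM.

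Tissue residence and helper genes followed the activated class. Of 14 residence genes, 11 were measured, 1 higher and 8 lower in naive cells, with a median of -2.50 (0 and 7 of 10, and -1.97, without the barcodes rich in other markers). Rgs1, a brake on chemokine signalling, stood at 51.6 against 678 CPM with those barcodes left out, with 652, 278, 338 and 1306 CPM in the activated cells of libraries 1, 2, 3 and 7. Itgae, the integrin that binds epithelium, stood at 5.16 against 42.1 CPM and was at 0 in the activated cells of libraries 2 and 3. Of the Th1, Th2 and Th17 lists 10 of 11, 4 of 7 and 10 of 11 measured genes were lower in naive cells and 0, 1 and 0 higher. The median ratios were -2.50, -2.29 and -2.86. The cytotoxic list had 6 of 7 and the effector cytokines 9 of 11 measured genes lower and 0 higher.

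The rule named 12 genes on the activated side in all 403 cells: Chil1, Cbr2, Krt83, Cxcl15, Sftpc, Hlf, Il1rl1, Ager, Mns1, Slc34a2, Asb2 and Ccl5. For 6 of them 1 cell held 50% or more of the activated UMIs, and these were the epithelial and airway genes Chil1, Cbr2, Cxcl15, Sftpc, Ager and Slc34a2. The other 6 were spread over many cells. Hlf, a PAR leucine zipper factor, had 175 UMIs in 63 activated cells and 0 in naive cells, at least 31.0-fold higher. Asb2, a subunit of a ubiquitin ligase, had 74 UMIs in 49 activated cells and 2 in naive cells. Mns1 had 86 UMIs in 43 cells and Krt83, a hair keratin, 91 UMIs in 42 cells. Il1rl1, the receptor for IL-33, had 144 UMIs in 24 activated cells and 0 in naive cells, and was present in the activated cells of all 4 libraries. Ccl5, a chemokine of effector T cells, stood at 892 against 68.3 CPM, and 1 cell held 30.9% of it.

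With the barcodes rich in other markers left out, the rule named on the activated side Ager and Cbr2, which rested on 1 cell for 98.9% and 98.1% of their UMIs, and further Mki67, Birc5, Pclaf, Ube2c, Top2a, Fgl2, Il17a, Hlf, Cpd and Il1rl1. Mki67, a marker of dividing cells, had 2 UMIs in naive cells and 320 in 34 activated cells. Fgl2, a secreted immunoregulatory protein, had 3 UMIs in naive and 205 UMIs in 55 activated cells. Cpd, a carboxypeptidase, had 4 in naive and 170 in 76 activated cells.

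**Figure D2:**
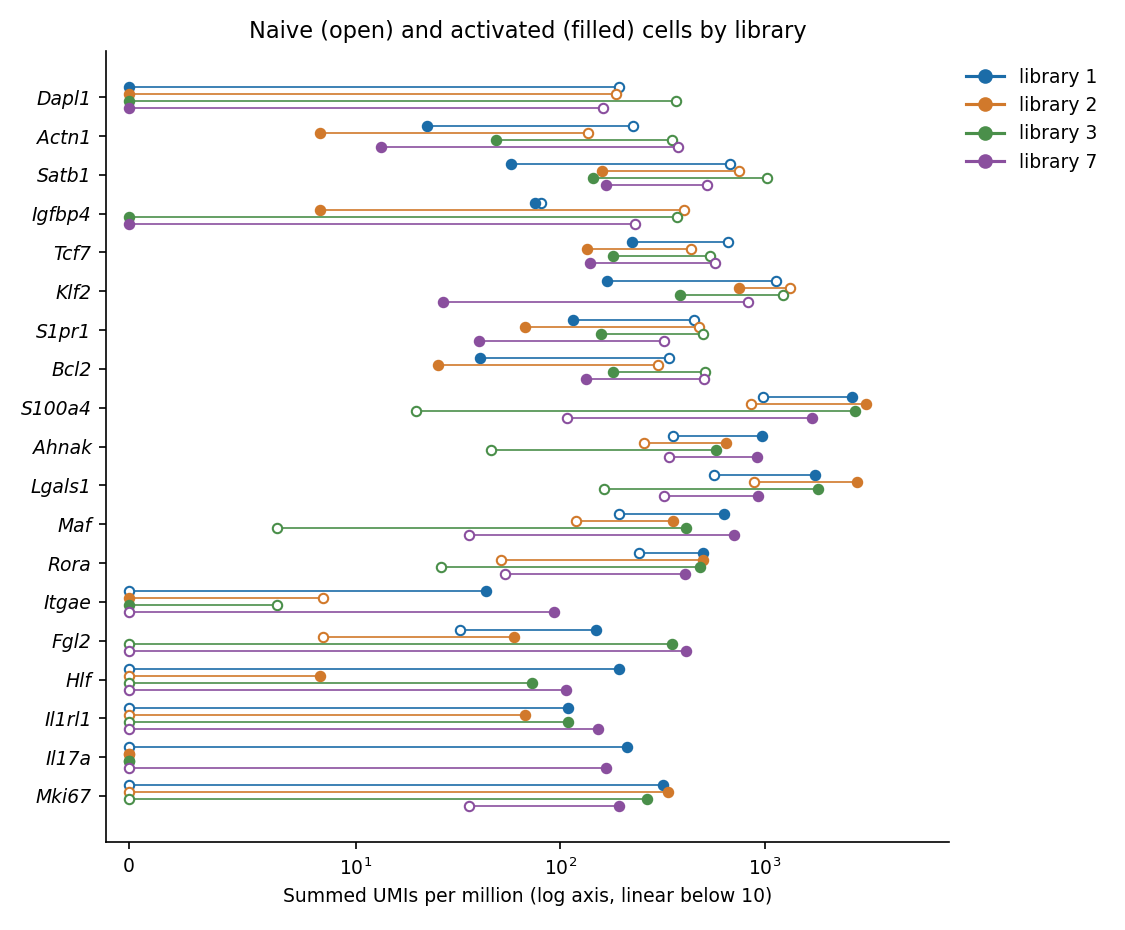
For each gene, open points are the naive and filled points the activated cells of 1 library, in CPM (log axis, linear below 10), with the barcodes rich in markers of other cells left out. From Dapl1 to Bcl2 the open points lie to the right and from S100a4 to Mki67 the filled points do, except for Itgae, which is at 0 in the activated cells of libraries 2 and 3, and Il17a, which is at 0 in both classes there.

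Cell cycle genes were lower in naive cells. Of 25 measured genes, 15 were at least 2-fold lower and 0 higher, with a median of -1.12, and all 25 were lower, with a median of -2.71, without the barcodes rich in other markers. Summed over the list, cells with both pairs stood at 7633 CPM, above the activated cells at 4591 and the naive cells at 1961. At least 2 UMIs of Mki67 were found in 26 of 182 cells of library 1 (14.3%, 9.55 to 20.2%), 17 of 93 of library 2 (18.3%), 10 of 80 of library 3 (12.5%) and 2 of 48 of library 7 (4.17%, 0.509 to 14.3%), against 3.12% of B cells. The intervals of all 4 libraries overlapped. Of 20 measured T cell receptor signalling genes 0 were at least 2-fold higher in naive cells and 3 lower, with a median of -0.56. Without the barcodes rich in other markers 1 was higher and 3 lower, with a median of -0.28. Summed over this list, the CPM was 5619 in naive cells, 8101 in cells with both pairs and 7338 in activated cells.

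The regulatory list had 0 higher and 5 lower of 9 genes (1 and 5 of 9 without the barcodes rich in other markers), and both measured genes of the gamma delta and innate-like list were lower. Of the 16 glycolysis genes 1 was higher and 1 lower, with a median of -0.63 (0 and 6 of 14, and -0.96, without the barcodes rich in other markers). Of 22 interferon-stimulated genes 4 were higher and 1 lower, with a median of 0.27, but 1 and 3 of 16, with a median of -0.15, without those barcodes. Of 26 immediate early genes 2 were higher and 2 lower, and 1 and 4 of 24 without them. The cytokine receptors had 3 higher (Il4ra, Il6ra and Il6st) and 4 lower (Il2ra, Il2rb, Il18r1 and Il1rl1) of 17, and the chemokine receptors 1 and 6 of 16. The checkpoint receptors had 1 and 4 of 13 and the follicular helper list 1 and 3 of 8. Naive cells also carried fewer kinds of transcript and more ribosomal protein transcripts: at 1500 UMIs per cell the median was 708 genes in naive, 816.5 in cells with both pairs and 836 in activated cells, and ribosomal protein genes held a median of 35.5%, 24.5% and 21.8% of UMIs.

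**Figure D3:**
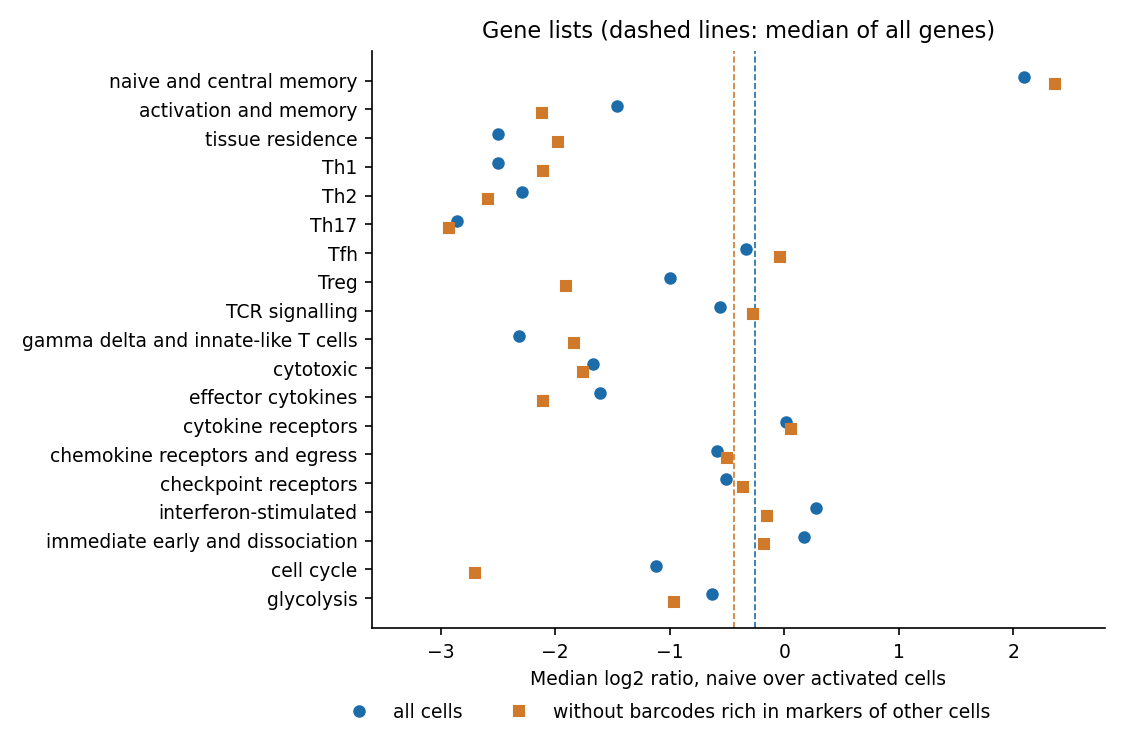
Points give the median log2 ratio of naive over activated cells for the measured genes of each list, in all cells (circles) and without the barcodes rich in markers of other cells (squares), and dashed lines the medians of all genes measured. The naive and central memory list lies at 2.09 and 2.36, and the Th17 list at -2.86 and -2.93.

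Each helper cytokine was found in a minority of cells. Il17a (chromosome 1, 20730905 to 20734496) had 182 UMIs in 23 of 182 cells of library 1 (12.6%, 8.18 to 18.4%) and 30 UMIs in 7 of 48 cells of library 7 (14.6%, 6.07 to 27.8%). It had 0 UMIs in the 93 cells of library 2, which allows a share of cells with a UMI of up to 3.23% by the limit of 3 counts (exact upper limit 3.89%), and 0 in the 80 cells of library 3, which allows 3.75% (4.51%). A count of 0 limits the cells with a UMI, not the cells that express the gene. The B cells of the 4 libraries together had a UMI in 1 of 1507 cells, which gives the level that free RNA could reach. Of the 182 UMIs of library 1, 82 came from 1 cell. At 1500 UMIs per cell, 7.14% (3.86 to 11.9%) and 8.51% (2.37 to 20.4%) of the cells of libraries 1 and 7 still carried it, and these intervals overlapped the exact upper limits of 3.89% and 4.56% for the zeros of libraries 2 and 3.

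Il17f and Ccr6, other genes of Th17 cells, had the same arrangement. Il17f had 41 UMIs in library 1 and 10 in library 7, and 0 in libraries 2 and 3. Ccr6, the receptor for Ccl20, stood at 75.1, 4.36, 3.16 and 45.1 CPM, though B cells carried it too, at 48.1 CPM. Of the 30 cells with Il17a, 2 had Trdc, 0 had Ifng and 0 had Il13. None of the 30 was in the naive class, 22 were in the activated class and 8 held both pairs. Within the activated class alone Il17a was found in 17 of 103 cells of library 1, 5 of 23 of library 7, 0 of 20 of library 2 and 0 of 13 of library 3. The exact upper limits of 16.8% and 24.7% for the counts of 0 include the 16.5% of library 1, so among activated cells alone a difference was not detectable at this depth.

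Of the Th1 genes, Ifng and Tbx21 were found in the largest share of cells in library 2. Ifng (chromosome 10, 118441046 to 118445892) had 92 UMIs in 23 of 93 cells there (24.7%, 16.4 to 34.8%), against 6 of 182 cells of library 1 (3.30%, 1.22 to 7.04%), 4 of 80 of library 3 (5%, 1.38 to 12.3%) and 6 of 48 of library 7 (12.5%, 4.73 to 25.2%). Tbx21 was found in 24 cells of library 2 (25.8%, 17.3 to 35.9%), 7 of library 1 (3.85%), 6 of library 3 (7.5%) and 2 of library 7 (4.17%). The intervals of library 2 lay above those of libraries 1 and 3 for both genes, and above that of library 7 for Tbx21. At 1500 UMIs per cell the shares of libraries 1, 2, 3 and 7 were 0.549, 9.68, 1.27 and 6.38% for Ifng and 1.65, 10.8, 3.797 and 2.13% for Tbx21. The interval of library 2 (4.52 to 17.6% and 5.28 to 18.9%) then lay above that of library 1 alone and overlapped those of libraries 3 and 7 for both genes. B cells carried Ifng in 0.464% and Tbx21 in 0.730% of cells. Of the 39 cells with Ifng, 14 also had Tbx21, and 0 were in the naive class. Library 2 also had the most barcodes rich in other markers. Without them 20 of its 76 cells had Ifng and 21 had Tbx21, while without all cells with a UMI of Trdc, Klrb1c or Lyz2 only 18 cells of library 2 remained, 5.56% of them with Ifng.

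Cxcr3, a chemokine receptor that accompanies the Th1 program, was found in 37 cells of library 2 (39.8%), against 59 of library 1 (32.4%), 17 of library 3 (21.3%) and 13 of library 7 (27.1%), at 170 CPM in library 2 and 80.01, 88.5 and 81.2 CPM in libraries 1, 3 and 7. It was thus highest in library 2, as Ifng and Tbx21 were, though the intervals of the shares overlapped. Ccl5 departed from this order. It stood at 86.3, 868, 735 and 2389 CPM in libraries 1, 2, 3 and 7, but in library 7 it came from 10 cells, 1 of which had 295 of its 794 UMIs.

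Gata3 and Il1rl1, of the Th2 program, were found in all 4 libraries. Gata3 (chromosome 2, 9857078 to 9890034) was found in 105 cells of library 1 (57.7%, 50.2 to 64.97%), 43 of library 2 (46.2%), 29 of library 3 (36.3%, 25.8 to 47.8%) and 25 of library 7 (52.1%), at 230, 92.6, 112 and 162 CPM, against 1.06% of B cells. The interval of library 1 lay above that of library 3 and overlapped those of libraries 2 and 7. It is expressed at a low level by most helper cells, and 24 of the 84 naive cells also carried it. Il13 (chromosome 11, 53631324 to 53634702) had 28 UMIs in 9 cells of library 1 (4.95%, 2.29 to 9.18%), 4 UMIs in 2 cells of library 7, and 0 in libraries 2 and 3, which allows up to 3.23% and 3.75% of cells with a UMI by the limit of 3 counts (exact upper limits 3.89% and 4.51%). Il5 had 15 UMIs in 7 cells of library 1, 2 UMIs in 1 cell of library 3 and 0 in libraries 2 and 7. Il4 had 9 UMIs in 7 cells of library 1 and 0, 1 and 2 UMIs in libraries 2, 3 and 7. The upper limits for Il13, Il5 and Il4 in libraries 2 and 3 overlap the interval of library 1, so a difference was not detectable at this depth.

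Il1rl1 was found in 20, 13, 4 and 4 cells of libraries 1, 2, 3 and 7 (10.99, 13.98, 5 and 8.33%), with overlapping intervals, and at 106, 34.9, 17.4 and 81.2 CPM. Of the 11 cells with Il13, 9 had Gata3 and 8 had Il1rl1. Areg, an epidermal growth factor family member made by Th2 and regulatory cells, had 76 UMIs in 9 cells of library 1, of which 54 came from 1 cell.

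Follicular and regulatory cytokines were rare. Il21 had 10 UMIs in 7 of the 403 cells. Bcl6 was found in 8.68% of the cells, against 11.4% of B cells and 11.8% of alveolar macrophages, the latter with a median of 15793 UMIs per cell against 6038 here. Per UMI it stood at 14.5 CPM (10.7 to 19.2), against 18.9 CPM in B cells and 8.26 CPM in alveolar macrophages, and at 1500 UMIs per cell at 1.496% (0.551 to 3.23%) of the cells, against 3.22% and 1.21%. Cxcr5 was found in 2.73% (1.37 to 4.83%), against 0.219% of alveolar macrophages and 49.7% of B cells, which express it themselves. Il10 had 78 UMIs in 7 cells, 61 of them in 1 cell of library 1, and all 7 of these cells also had Ctla4.

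**Figure D4:**
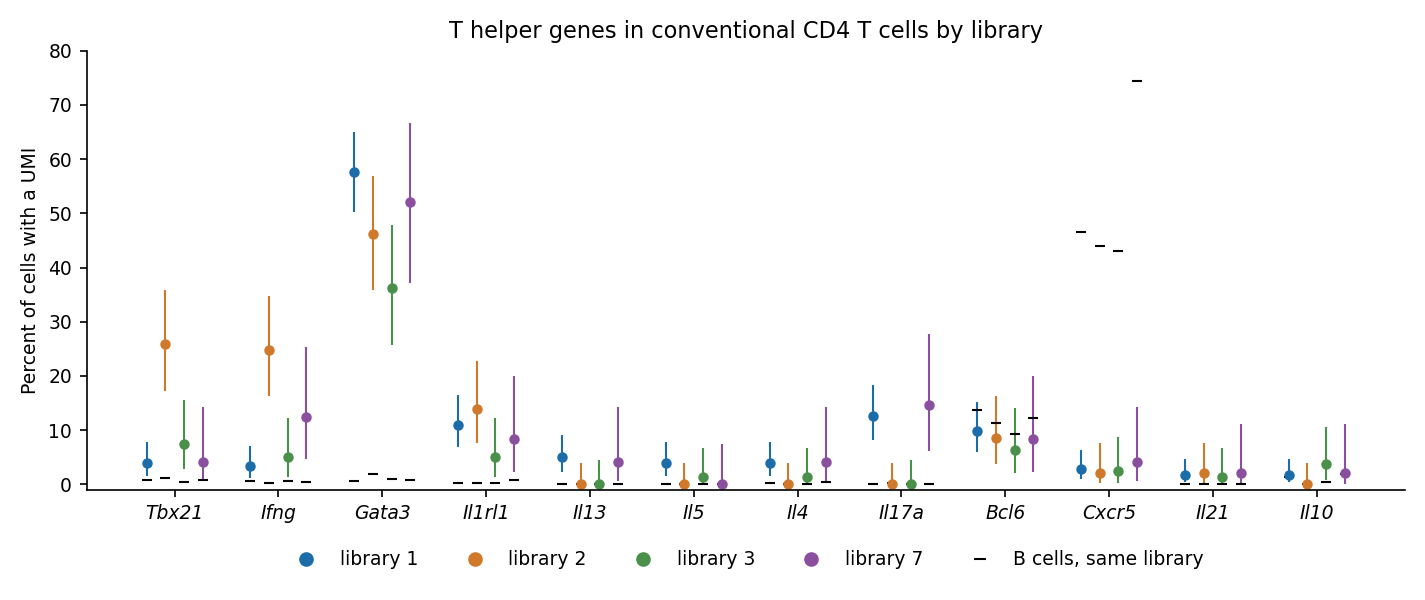
Points give the percent of conventional CD4 T cells of each library with at least 1 UMI of a helper gene, with exact 95% binomial intervals, and black dashes the percent of B cells of the same library. Il17a lies at 12.6% and 14.6% in libraries 1 and 7 and at 0 in libraries 2 and 3, and Ifng lies at 24.7% in library 2. The B cells exceed the T cells in each library for Cxcr5 and, by less, for Bcl6.

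Across all genes, each library was set against the highest of the other 3, with the barcodes rich in other markers left out. Library 3 had Vps37b, an endosomal sorting subunit, at 1201 CPM against 330, 428 and 304 CPM in libraries 1, 2 and 7, in 72 of 74 cells, and Dusp10, a MAP kinase phosphatase, at 415 CPM against 111, 130 and 110 CPM, in 52 cells. B cells of library 3 also had the highest values of both, at 335 and 26.8 CPM against at most 149 and 19.8 CPM in the other libraries. Library 1 had Tox2, a factor of follicular and exhausted T cells, at 72.8 CPM in 41 of 171 cells, against 9.52 to 12.3 CPM. Library 7 had Gm42418, a noncoding RNA gene that overlaps ribosomal RNA, at 17720 CPM against 2916 to 5564 CPM, and the B cells of library 7 had it at 18128 CPM. The other genes named by this rule in libraries 1, 2 and 7 included Cbr2, Mmrn1, Ccl21a, Mmp3, Stfa3, Ager and Emp2, each with most of its UMIs in 1 cell.

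CD8 T cells of the same libraries were taken with the same CD3 and mitochondrial limits, a Cd8a or Cd8b1 UMI and none of Cd4. There were 454, or 100, 135, 154 and 65 in libraries 1, 2, 3 and 7, which gives 1.82, 0.689, 0.519 and 0.738 conventional CD4 cells per CD8 cell. Library 1 was thus the one with more CD4 than CD8 cells by these rules. The CD4 side rests on detection of Cd4 alone, and the CD8 side on either of Cd8a and Cd8b1. The 331 cells with at least 2 CD3 UMIs but none of Cd4, Cd8a, Cd8b1 or Foxp3 count on neither side. The ratios therefore depend on detection and are not the true composition. Of the CD8 cells 38.5% were naive and 15.0% activated by the same pairs. Of 10086 genes 7.06% were at least 2-fold higher and 2.11% at least 2-fold lower in CD4 than in CD8 cells.

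The genes named as higher in CD4 cells were Il1rl1, Ccr4, St8sia6, Cd40lg, Areg and Bmp7. Ccr4, the receptor for Ccl17 and Ccl22, had 163 UMIs in 107 CD4 cells and 4 UMIs in 2 CD8 cells, and stood at 94.6, 8.72, 15.8 and 27.1 CPM in the CD4 cells of libraries 1, 2, 3 and 7 and at 4.05 CPM or less in the CD8 cells of each. Cd40lg, the ligand by which helper cells activate B cells, stood at 52.1 against 3.103 CPM and was higher in each library. Outside the rule, Maf stood at 347 against 32.7 CPM and Rora at 324 against 66.3 CPM. The Th2 list had 9 of 10 and the Th17 list 12 of 12 measured genes at least 2-fold higher in CD4 cells, and 0 lower.

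The genes named as higher in CD8 cells were Crtam, Gzma, Klre1, Xcl1, Klra7 and Klrc2, which are granule, chemokine and natural killer receptor genes. Without the barcodes rich in other markers, Hlf and Klrc1 were named in place of Bmp7 and Klra7. Gzma, a granule protease, stood at 7.23 CPM in CD4 and 763 CPM in CD8 cells. All 14 genes of the cytotoxic list were at least 2-fold lower in CD4 cells. The naive and central memory list had 0 higher and 3 lower of 15 and the receptor signalling list 1 and 0 of 20.

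Foxp3-positive T cells, taken with at least 1 Foxp3 UMI and no Cd8a or Cd8b1, numbered 21, 14, 23 and 27 in libraries 1, 2, 3 and 7. They made up 10.3% (6.52 to 15.4%), 13.1% (7.34 to 20.98%), 22.3% (14.7 to 31.6%) and 36.0% (25.2 to 47.9%) of the conventional CD4 and Foxp3 cells together, and the interval of library 7 lay above those of libraries 1 and 2. Of 9067 genes 8.23% were at least 2-fold higher and 3.33% at least 2-fold lower in the conventional cells. All 13 measured genes of the regulatory list were lower, among them Ikzf2 (82.8 against 1063 CPM), Il2ra, the IL-2 receptor alpha chain (26.5 against 415 CPM), Ikzf4 (8.13 against 84.7 CPM) and Klrg1 (14.8 against 263 CPM). Tnfrsf9 (9.04 against 175 CPM) and Neb (3.61 against 75.9 CPM) completed the genes named on that side. Markers of other cells also differed. In the conventional cells 7 of 8 endothelial, 6 of 6 dendritic cell and 4 of 7 epithelial genes were higher, with 1 epithelial gene lower. Of 3 B cell genes 0 were higher and 2 lower. Without the barcodes rich in other markers 6 of 7 endothelial genes were higher. Of 4 dendritic cell genes 0 were then higher and 1 lower, and 0 of 4 epithelial genes passed 2-fold. The part of these transcripts in the other values was not tested.

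On the conventional side the rule named Lcn2, Pde3b, Aqp1, Tcf7, Igfbp4 and Sftpa1. Tcf7 stood at 267 against 23.4 CPM, with a UMI in 285 of 403 and 10 of 85 cells, and Pde3b, a phosphodiesterase, at 40.4 against 1.46 CPM, with a UMI in 87 and 1 cells. Lcn2 and Sftpa1 rested on 1 cell for 95.9% and 88.0% of their UMIs, and without the barcodes rich in other markers Actn2, Sparc and Ifitm2 were named in place of Lcn2, Aqp1 and Sftpa1. Il1rl1 and Gata3 were not marks of the conventional cells against these: Il1rl1 stood at 67.2 against 318 CPM and Gata3 at 163 against 259 CPM, lower in the conventional cells of each library. Il17a stood at 63.9 against 10.2 CPM, but in library 2 it was at 0 in the conventional and 42.8 CPM in the Foxp3-positive cells.

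**Figure D5:**
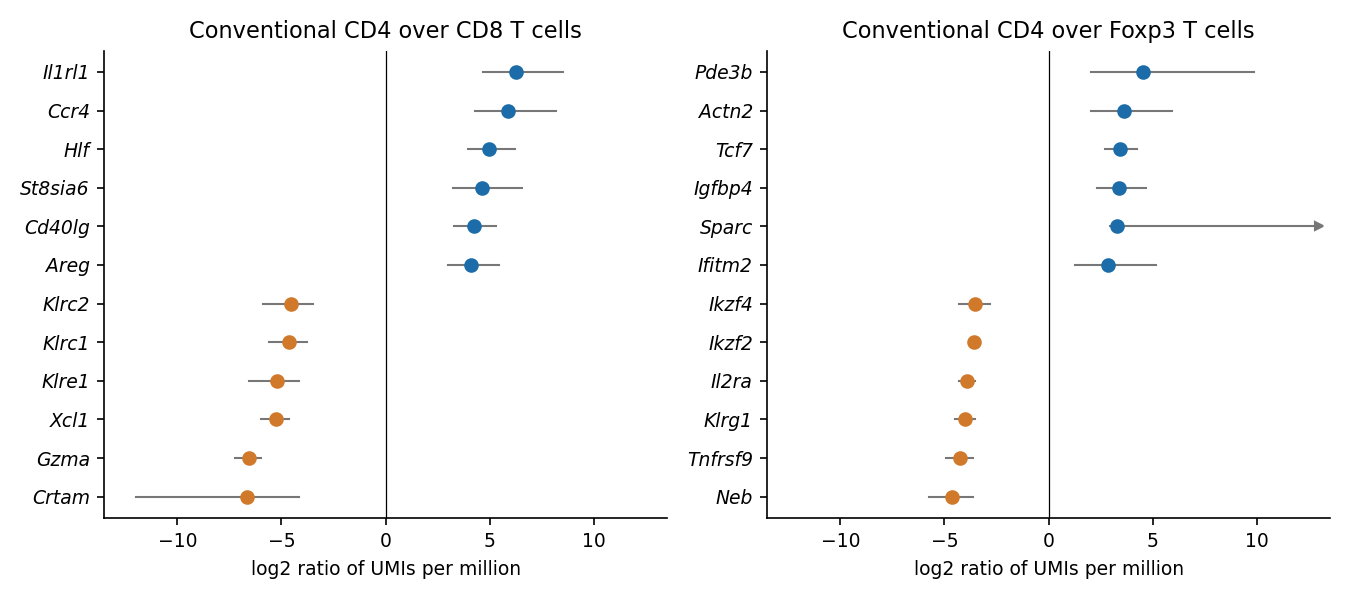
Points give the log2 ratio of CPM in conventional CD4 T cells over CD8 T cells (left) and over Foxp3-positive T cells (right) for the genes named by the rule without the barcodes rich in other markers, with 95% intervals for counting error only; an arrow marks a ratio that is a lower bound. Crtam and Gzma lie lowest on the left, and Neb and Tnfrsf9 on the right.

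The same rule in libraries 4, 5 and 6 gave 115 cells. Their barcodes carried hemoglobin transcripts, with Hbb-bs at 41806 CPM and a UMI in all 115 cells, against 2.11 CPM in the 403 cells. Scgb1a1 and Sftpc were at 0 UMIs there. All 7 red cell marker genes were lower and all 7 measured epithelial markers higher in libraries 1, 2, 3 and 7. Of other marker lists 8 of 8 fibroblast, 6 of 6 dendritic cell, 8 of 9 macrophage and monocyte and 7 of 8 endothelial genes were higher there, and 5 of 6 neutrophil genes lower. Barcodes rich in other markers were 7 of 9, 10 of 50 and 17 of 56 in libraries 4, 5 and 6, against 35 of the 403. The part of these transcripts of other cells in the differences below was not tested. Of 9121 genes 18.1% were at least 2-fold higher and 3.3% at least 2-fold lower in libraries 1, 2, 3 and 7. Without the barcodes rich in other markers these shares were 12% and 4.51% of 8100 genes.

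Naive cells made up 56.5% of the 115 (47.0 to 65.7%) and activated cells 4.35% (1.43 to 9.85%), both intervals apart from those of the 403 cells. The libraries differed among themselves: library 6 had 73.2% naive cells (59.7 to 84.2%) and 0 of 56 activated, while library 5 had 38% naive (24.7 to 52.8%) and 10% activated (3.33 to 21.8%), intervals that overlapped those of libraries 2 and 3. Cxcr6 stood at 187 CPM in libraries 1, 2, 3 and 7 and 14.3 CPM in libraries 4 to 6, Il1rl1 at 67.2 and 2.20 CPM, and Ctla4 at 219 and 35.2 CPM. Il17a had 212 UMIs against 0, at least 19.3-fold higher. Of the naive and central memory list 8 of 15 measured genes were at least 2-fold lower in libraries 1, 2, 3 and 7 and 0 higher, and of the activation and memory list 0 of 23 were lower and 14 higher (10 of 15 lower, and 13 of 22 higher, without the barcodes rich in other markers). The immediate early list, which cell dissociation is known to raise, had 18 of 26 genes higher and 0 lower, and its part in the other differences was not tested. The receptor signalling list had 0 of 20 genes past 2-fold in either direction.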

How the data were processed

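Per the labels, the authors sequenced 10x Genomics 3' libraries of mouse lung cells, aligned the reads to mm10 with STAR and counted UMIs with Cell Ranger. The header of the matrix gives the Cell Ranger version as 3.1.0. The authors deposited 1 matrix of raw UMI counts for 31053 genes and 37344 barcodes, after down-sampling reads where needed. Counts were used as deposited. Libraries 1, 2, 3 and 7 held 50552002, 79439569, 47364075 and 34606626 UMIs. Positions came from GENCODE M21 (GRCm38), which held 30934 of the gene identifiers. The cells, the class genes and the 29 gene lists were chosen with earlier results of these data known.

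Counts were summed over cells and divided by all UMIs (CPM), with exact Poisson intervals, exact Clopper-Pearson intervals for shares and exact conditional binomial intervals for ratios. Each interval covers counting error only. A gene at 0 was set to 3 counts. Genes with at least 30 UMIs over both sides were compared, and at least 2-fold counted as higher or lower. No p-value was computed. No library is mapped to a sample of the study, so the matrix was taken as 1 sample, and the cell sets were cut from the same counts that were compared. The genes named were the 12 on each side (6 for other T cell sets, 5 per library) with the largest ratio among genes with at least 50 UMIs, that had the same side in every library with at least 20 cells on both sides. No library met that minimum for naive against activated cells without the mixed barcodes (cells with over 1% markers of other cell types) or for libraries 4 to 6, where the condition did nothing. B cells (at least 2 UMIs of Cd79a, none of CD3 or C1qa) numbered 1507, with a median of 4356 UMIs. Cells were thinned to 1500 or 1000 UMIs. Scrublet (scanpy 1.11.5) was run per library as the doublet caller. It marked 12 of the 403 cells, and they were kept in the values given. Counts for naive against activated cells were also simulated from the pooled sums, with counting error alone and no spread between cells or libraries. There, 196 of 200 genes changed 4-fold passed the 2-fold limit, as did 104 of the other genes among 7084. These numbers do not give the rate of false calls in the real counts, where single cells held much of some genes. Python 3.11.15, numpy 2.4.6, scipy 1.17.1, pandas 2.3.3 and matplotlib 3.10.9 were used. Alternatives were other limits on mitochondrial UMIs, CD3 UMIs, depth, doublets, UMIs per gene and other cells' transcripts, and leaving out each library. Some genes that the lists or the rule for named genes hold are not reported here, though counts over a list include them.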

Additional observations from a re-analysis of the deposited data

How the results depend on the processing

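No library is mapped to a sample of the study, so the matrix was taken as 1 sample, and no result comes from a test. Pairs of cell sets within libraries did exist, since libraries 1, 2, 3 and 7 each had at least 20 CD4 and 20 CD8 cells. Within-library differences between cell sets are given as values, and a fit with the libraries as pairs was not run. Of the summary values recomputed under the alternatives, 232 stayed within their interval or within 1.5 times the count and 48 did not. For single genes 1470 values stayed within their interval, 351 moved outside it and 18 changed sign. Where no construction shows it, the cause was not tested.

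A mitochondrial limit of 5% kept 132 cells (33, 45, 25 and 29 in libraries 1, 2, 3 and 7), with naive shares of 15.2% in library 1 and 20% in library 3, and 460 genes lower in naive than in activated cells, against 864 in all cells. Leaving out every cell with a UMI of Trdc, Klrb1c or Lyz2 kept 175 cells (91, 18, 39 and 27). The naive share of library 2 was then 61.1%, and activated shares were 44.6% of all cells and 11.1% of library 2. That setting left 106 genes higher in naive than in activated cells (422 in all cells), 471 higher in CD4 than in CD8 cells (712), 316 higher than in Foxp3-positive cells (746) and 688 higher than in libraries 4 to 6 (1652). It kept the smallest share of the cells in library 2. With fewer cells, fewer genes reach the minimum of UMIs for comparison. A lower count of genes here and below can therefore come in part from fewer genes compared, and that part was not tested.

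Leaving out the cells with over 1% markers of other cells gave 166 higher and 1310 lower genes in naive cells, and 968 higher against libraries 4 to 6. These were out of 5904 and 8100 genes compared, against 7102 and 9121 in all cells. Leaving out cells beyond 2 SD of the mean in UMIs or genes gave 218 higher in naive cells and 461 higher against Foxp3-positive cells. At 1500 UMIs per cell 59 genes were higher and 254 lower in naive cells, with fewer genes tested, and activated cells were 47.8% of library 1. At 1000 UMIs activated cells were 30.6% of all cells and 40.1% of library 1. With at least 100 UMIs per gene the higher and lower counts were 129 and 258 for naive cells, 270 and 93 against CD8, 191 and 117 against Foxp3-positive cells, and 707 and 131 against libraries 4 to 6. With at least 1 UMI they were 1207 and 1844 for naive cells.

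Leaving out 1 library at a time gave 221 (without library 1) to 355 cells (without library 7), pooled naive shares of 16.4% (without library 3) to 30.3% (without library 1) and activated shares of 25.3% (without library 1) to 45.2% (without library 3). The genes higher in naive cells numbered 265 (without library 1) to 438 (without library 7) and those lower 496 (without library 1) to 834 (without library 2). These counts too are not shares of a fixed number of genes.

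The log2 ratios that changed sign were all of genes of other cell types or genes with much of their count in 1 cell. Within 2 SD, Cbr2 was 0.040, Cxcl15 0.040, Sftpc 0.64 and Slc34a2 0.30 for naive over activated cells, and Sftpa1 -0.33 against Foxp3-positive cells. Without the Trdc, Klrb1c or Lyz2 cells Sftpc was 1.64, and Aqp1 -0.028 and Sftpa1 -0.11 against Foxp3-positive cells. Without the cells rich in other markers Cxcl15 was 0.46, Sftpc 0.95, Slc34a2 0.73 and Spp1 -0.54, and Lcn2 -1.51 against Foxp3-positive cells. Ager ranged from -6.12 without library 3 to 0.11 without library 7. At 1500 UMIs Inmt was -1.68, Mgp -0.31, Sftpc 1.55 and Spp1 -1.42.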

Other observations

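The summed levels of whole gene lists were also set side by side across the 4 libraries. The receptor signalling list summed to 7068, 6884, 7638 and 8670 CPM in libraries 1, 2, 3 and 7, against 945 CPM in B cells. The naive and central memory list stood at 1972, 2850, 4478 and 3021 CPM and the activation and memory list at 13110, 12107, 8753 and 10713 CPM. Libraries 1 and 3 stood at the ends of both lists, as in the naive and activated classes. Library 7 had less of the activation list than library 2, against the order of their classes. Its naive list sum was above that of library 2, but the intervals overlapped (2837 to 3213 and 2742 to 2961 CPM). The median per cell of the naive list was lower in library 7, at 12 UMIs against 21 in library 2. The Th17 list stood at 1769, 712, 550 and 1342 CPM and the Th2 list at 790, 439, 246 and 382 CPM, below the 1061 CPM of B cells. The Th1 list stood at 727, 2394, 1604 and 3845 CPM. In library 3 62.9% and in library 7 81.6% of its UMIs were held by 5 cells of that library. The cell cycle list stood at 5348, 6081, 5005 and 2413 CPM.

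The 8 cells with Il17a that held both pairs and the 22 that were activated came from libraries 1 and 7, and 14 of these 30 cells also had a UMI of Gata3. Of the 41 cells with Il1rl1, 32 also had Gata3. Of the 81 cells with Mki67, 53 also had Top2a, a topoisomerase of dividing cells.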
